A study of Homo sapiens with 12 samples.

Results

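Retinoid metabolism and transport were followed in U937 cells through 10 genes: CYP26A1, CYP26B1, CYP26C1, DHRS3, DHRS9, RDH10, ALDH1A1, ALDH1A2, CRABP2 and STRA6. They were selected by name, and every transcript listed under one of these symbols was taken, which gave 88 transcripts of 10 genes out of 44786 gene symbols in the RNA-seq table. Of the 88 transcripts, 36 had at least 1 read in any library, with 42646 reads altogether. U937 is a human myelomonocytic leukemia cell line, and it is the only cell line analysed here. The study has 3 libraries each from untreated cells, cells treated with 200 nM decitabine (DAC), cells treated with 1 µM all-trans retinoic acid (ATRA), and cells given both (DAC + ATRA). The labels give culture with 20% FCS and 5 ng/ml GM-CSF for all 4 groups and 3 days of treatment. The treated cells are labelled 72 h and the untreated cells 96 h, whereas the design text gives one harvest time for all, so harvest time and treatment cannot be told apart in any comparison with untreated cells. The methods state that ATRA was added with the last DAC dose, and the labels do not. The triplicates are described as technical, and p-values therefore measure only the spread between these libraries. RNA came from whole cultures, so more cells with a transcript and more transcript per cell cannot be told apart.

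Retinoic acid is made from vitamin A in steps that run in both directions. Retinol enters cells through the receptor STRA6, is oxidized to retinal by dehydrogenases such as RDH10 and DHRS9, and is regenerated from retinal by the reductase DHRS3. ALDH1A1 and ALDH1A2 oxidize retinal irreversibly to retinoic acid, CRABP2 carries retinoic acid to its nuclear receptors, and the CYP26 hydroxylases convert it to inactive polar forms. CYP26A1 and DHRS3 are textbook feedback genes, induced by the ligand whose level they lower. Retinoic acid receptors bind DNA with a retinoid X receptor at paired hexamers, the best known of which are direct repeats with a 5-base spacer (DR5). DAC is incorporated into DNA in place of deoxycytidine and binds DNA methyltransferases there, so that methylation at CpG dinucleotides is lost as cells divide.

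The start regions of the members differed in both features, and the sequences that show it best are printed first. The 300 bases around the CYP26A1 start (RefSeq promoter table, GRCh38.p14, chr10:93073643-93073942, plus strand, 250 bases before the start and 50 after it) hold a DR5, whose hexamers are in capitals. For comparison, the same window is shown for DHRS3 (chr1:12618161-12618460, minus strand) and for ALDH1A1 (chr9:72953004-72953303, minus strand), with each CpG in capitals.
CYP26A1: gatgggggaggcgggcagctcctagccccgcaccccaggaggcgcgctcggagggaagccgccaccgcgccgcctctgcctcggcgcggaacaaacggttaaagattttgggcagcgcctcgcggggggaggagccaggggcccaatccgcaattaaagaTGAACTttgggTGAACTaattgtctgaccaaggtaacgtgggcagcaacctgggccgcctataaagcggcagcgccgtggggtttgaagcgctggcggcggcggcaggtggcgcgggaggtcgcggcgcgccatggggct
DHRS3: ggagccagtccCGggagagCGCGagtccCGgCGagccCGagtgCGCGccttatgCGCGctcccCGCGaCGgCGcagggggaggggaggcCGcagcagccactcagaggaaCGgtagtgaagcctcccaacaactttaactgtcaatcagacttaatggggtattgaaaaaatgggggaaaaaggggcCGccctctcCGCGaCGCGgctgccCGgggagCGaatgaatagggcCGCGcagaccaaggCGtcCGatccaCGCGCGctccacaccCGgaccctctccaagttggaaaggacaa
ALDH1A1: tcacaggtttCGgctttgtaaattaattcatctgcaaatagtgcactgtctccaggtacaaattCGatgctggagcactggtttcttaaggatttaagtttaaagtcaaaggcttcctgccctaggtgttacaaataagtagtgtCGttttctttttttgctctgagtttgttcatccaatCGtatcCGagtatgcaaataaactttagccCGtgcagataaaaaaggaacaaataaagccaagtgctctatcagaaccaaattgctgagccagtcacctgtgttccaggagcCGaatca

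The CYP26A1 window held 32 CpG dinucleotides and the DHRS3 window 31, whereas the ALDH1A1 window held 7. The median of 35116 RefSeq promoter windows of the same length was 14. Of the other members, the window nearest to the leading transcript (for ALDH1A2 and CRABP2 to the canonical transcript, and for CYP26C1 to ENST00000624358, a nonsense-mediated decay transcript, since its leading transcript has no coordinates in GENCODE 44) held 41 CpGs for ALDH1A2, 29 for CYP26C1, 20 for CRABP2, 19 for CYP26B1, 4 for STRA6 and 2 for DHRS9, and RDH10 is not in the table. A search for direct repeats of the hexamer AGGTCA, the hexamer GGGTCA, the hexamer AGTTCA or the hexamer GGTTCA in any pairing, on both strands, with a 5-base spacer found the motif in 31 of the 35116 promoter windows (0.0883%), and CYP26A1 was the only member among them. In the hg38 sequence within 5000 bases on either side of the start of the leading transcript (ENST00000624358 for CYP26C1 and the canonical transcript for CRABP2), CYP26A1 had 3 DR5 motifs and DHRS9 had 1, compared to 442 of 19701 windows of the same size around protein-coding gene starts (2.24%) with any. These are the 4 motifs of the members, the hexamers in capitals, each read 5′ to 3′ on the strand where it was found.
CYP26A1, chr10:93070522-93070538, minus strand: GGTTCActaagGGGTCA
CYP26A1, chr10:93071917-93071933, plus strand: GGGTCAcaggcGGGTCA
CYP26A1, chr10:93073803-93073819, minus strand: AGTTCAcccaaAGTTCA
DHRS9, chr2:169069901-169069917, minus strand: AGGTCAcaccgAGGTCA

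The first bases of the CYP26A1 motifs in plus-strand coordinates lay at -3371, -1976 and -90 from the transcript start, and the last of these is the pair in the printed promoter, which is read there on the other strand. The DHRS9 motif lay at -2599. The other 8 members had no DR5, which says only that these letters are not in their windows. With a 2-base spacer (DR2) CYP26A1, CRABP2 and STRA6 had 1 match each, and 36.7% of the start windows had any, and with a 1-base spacer (DR1) CRABP2 had 1, and 4.18% had any.

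The libraries held 8042435 to 10683593 counted reads, and the values are reads divided by a size factor of 0.809 to 1.20 per library, called normalized read counts below. At this depth 3 reads equal 2.50 to 3.71 normalized read counts. Mitochondrial transcripts took 36.3 to 42.5% of the reads. Libraries of one group differed by more than sampling noise in all 12 pairs (2.05 to 8.19 chi-square units for each degree of freedom), the largest value being that of ATRA libraries 8 and 9. Of 9 myelomonocytic marker genes, 8 had reads, with MPO, CD4 and CD33 highest, but the pan-leukocyte gene PTPRC had 0 reads in 12 libraries and CD68 only 9. Their summed level was 54129 to 60576 in untreated libraries, 31489 to 43347 with ATRA, 24724 to 38660 with DAC and 19617 to 20943 with both. MPO, which makes up most of this sum, fell in the 3 treated groups, and the other markers did not all fall. From untreated cells to DAC + ATRA, the mean of CD4 went from 3734 to 4477 and that of TYROBP from 1.52 to 22.1. CSF1R was also higher, as were FCER1G and CD68 on few reads, whereas CD33 (848 to 763) and SPI1 were lower. Of the 3 markers tested, only MPO passed in that comparison. Of 20 markers of other cell types, 5 could be tested and 5 rose with DAC (CD2, CD79A, COL1A1, KRT8 and PDGFRB), where 30.6% of all tested transcripts rose, 3 rose with ATRA (6.47% of all) and 5 with DAC + ATRA (32.6%), and 2 had a negative interaction that passed (1.67%). KRT8 and CD2 reached the filter on low values only through the groups with DAC, where they are high. The summed level of the 20 was 167 to 190 in untreated libraries, 348 to 500 with ATRA, 1316 to 1429 with DAC and 1860 to 1995 with DAC + ATRA, while HBA1, HBB, ALB, CDH1 and DCN had 0 reads. The part of either marker list in the results for the members was not tested.

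For each member with reads the leading transcript is the protein-coding one with the highest mean over the 12 libraries. It reached 10 normalized read counts in at least 3 libraries, and was therefore tested, for 5 of the 10 members: CYP26A1, DHRS3, DHRS9, RDH10 and ALDH1A1. Among these 5, DAC changed 3, ATRA 1 and DAC + ATRA 3 compared to untreated cells at an adjusted p below 0.01. Among all 9016 protein-coding transcripts tested, 39.3%, 9.14% and 46.8% passed in the same comparisons. DAC + ATRA differed from ATRA alone in 3 of the 5 (34.8% of all) and from DAC alone in 3 of the 5 (11.3% of all). The DAC x ATRA interaction, which is 0 where the log2 changes of the single agents add up, passed for 1 of the 5 (2.46% of all). By direction, 2 members rose and 1 fell with DAC (30.6% and 8.7% of all), 1 rose with ATRA (6.47% and 2.67%), and 3 rose with DAC + ATRA (32.6% and 14.2%). DAC + ATRA was higher than ATRA for 2 members and lower for 1 (25.9% and 8.88%), and higher than DAC for 3 (6.08% and 5.26%), and the interaction that passed was positive (0.787% and 1.67%). Other transcript types and sums per symbol came from separate fits. With transcripts of all biotypes, 33.5% passed with DAC, 6.97% with ATRA, 41.6% with DAC + ATRA, 29.4% for DAC + ATRA against ATRA and 8.77% against DAC. With sums, 40.6% of symbols passed with DAC and 9.61% with ATRA. With no filter, 9 members were among the 25317 transcripts tested, and 2 passed with DAC (15.6% of all), 2 with ATRA (3.09%), 6 with DAC + ATRA (18.9%), 4 for DAC + ATRA against ATRA (13.9%), 3 against DAC (4.16%) and 1 for the interaction (0.987%). CYP26A1 reached the filter only through the DAC + ATRA libraries, the group in which it is high, so its differences from that group follow in part from the way it entered the test. Of the other 4 members, 2 passed with DAC + ATRA, 2 for DAC + ATRA against ATRA, 2 against DAC and 0 for the interaction. Median log2 differences of the 5 and of all tested transcripts were 0.21 and 0.22 with DAC, 1.02 and 0.00 with ATRA, and 1.38 and 0.20 with DAC + ATRA. A different scaling (TMM) moved the median of all transcripts with DAC from 0.22 to 0.02 and the share of higher among the called transcripts from 77.9% to 59.3%, so small rises with DAC are read against that shift. That share moved from 69.7% to 58.6% for DAC + ATRA and from 70.8% to 54.7% for ATRA with library size scaling, and from 74.5% to 63.7% for DAC + ATRA against ATRA with TMM.

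**Figure D1:**
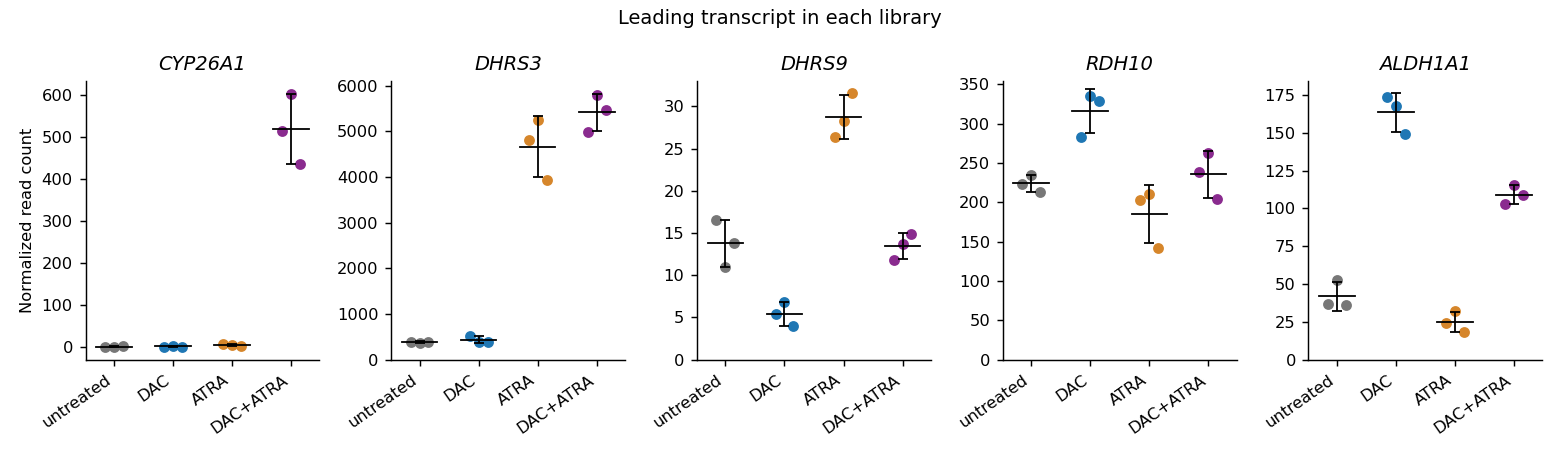
Normalized read counts (y axes, linear, each panel with its own range) of the leading transcript of the 5 tested members in each of the 12 libraries (points), with the mean (bar) and SD (whisker) of 3 libraries per group. CYP26A1 was at 437 to 604 in the DAC + ATRA libraries and at 6.34 or less in the other 9, DHRS3 was high in both groups with ATRA, and ALDH1A1 was high in both groups with DAC.

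CYP26A1, the main retinoic acid hydroxylase, had at most 6 reads in each of 9 libraries and was high in the 3 DAC + ATRA libraries. Its leading transcript (ENST00000224356, chr10:93073893-93077885, plus strand, 7 exons) had 0, 0 and 0.924 normalized read counts in untreated libraries 1 to 3 and 0, 1.95 and 0 in DAC libraries 4 to 6. It had 6.34, 4.55 and 0.832 in ATRA libraries 7 to 9, and 516, 604 and 437 in DAC + ATRA libraries 10 to 12. The DAC + ATRA libraries thus did not overlap with any other group, and for this transcript the ATRA libraries did not separate from the untreated and DAC libraries. Summed over the transcripts of the gene, the ATRA libraries had 6.34, 5.46 and 2.50, above the untreated libraries (0, 1.82 and 1.85) and the DAC libraries (0, 1.95 and 0), a separation that rests on 3 to 6 reads in each ATRA library.

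Counted over the 3 libraries of a group, CYP26A1 had 1 read untreated, 2 with DAC, 12 with ATRA and 1499 in the DAC + ATRA group. The ratio of DAC + ATRA to ATRA was 142 (exact 95% counting interval 80.8 to 275), and that to DAC was 773 (214 to 6390). These intervals cover counting error only. The p-values that follow are those of a transcript tested only because of its DAC + ATRA values. On the log2 scale with 1 added, DAC + ATRA exceeded untreated by 8.70 ± 0.50 (SE, adjusted p = 6.57e-12), ATRA by 6.94 ± 0.50 (adjusted p = 3.61e-10) and DAC by 8.49 ± 0.50 (adjusted p = 1.04e-10). With ATRA alone the difference of 1.76 ± 0.50 missed the threshold (adjusted p = 0.0206), and without ATRA library 9, the lowest of its group, it was 2.36 with an adjusted p of 0.00126. It also passed with no filter on low values (adjusted p = 0.00727, where 3.09% of 25317 transcripts passed), and in sums by symbol it was 1.46 ± 0.46 (adjusted p = 0.0332). With DAC alone it was 0.21 ± 0.50 (adjusted p = 0.759).

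The CYP26A1 interaction was 6.73 ± 0.71 (adjusted p = 5.87e-06), that is, the rise with both agents exceeded the product of the single-agent folds by that amount on the log2 scale. It rests on few reads outside the DAC + ATRA group, and the transcript entered the test only through that group. The same interaction was 6.23 with an adjusted p of 0.229 by edgeR on the recovered reads, 7.07 with an adjusted p of 0.0209 with a pseudocount of 0.1, 5.69 with an adjusted p of 0.337 by edgeR without DAC library 6, and below 0.01 in the other alternatives that were run. On the scale of normalized read counts, which needs no pseudocount, the DAC + ATRA mean lay 515 ± 48.2 (SE) above the sum of the single-agent rises.

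The remaining CYP26A1 transcripts with reads were highest with DAC + ATRA as well. A second protein-coding transcript, ENST00000371531, had 18.5 to 30.5 normalized read counts with DAC + ATRA, 0 with DAC and with ATRA, and 2 reads in the untreated group. Compared to 3 reads over the group, it was at least 26.8-fold higher with DAC + ATRA than with ATRA and at least 24.4-fold higher than with DAC, and its interaction was 5.14 ± 0.63 (adjusted p = 2.36e-05), a fitted value that depends on the added 1 where groups are at 0 and comes from a transcript that reached the filter in DAC + ATRA libraries only. A transcript with a retained intron, ENST00000623162, had 42.1 to 55.6 with DAC + ATRA and at most 1.66 in any other library. In the fit of all biotypes, where 1.51% of transcripts passed for the interaction, its interaction was 5.17 ± 0.62 (adjusted p = 5.35e-06), and it too reached the filter in DAC + ATRA libraries only. ENST00000625202 had 35 reads with DAC + ATRA and 0 in the other 9 libraries. Within the DAC + ATRA libraries the leading transcript took 85.5% ± 2.70 (SD, n = 3) of the reads of the gene and the retained intron transcript 8.30% ± 2.19. Only 186 of the 2117 bases of the leading transcript lie outside other GENCODE 44 transcripts on its strand, and reads shared by several transcripts may not have been counted, so the level of the gene may be too low.

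CYP26C1, a paralog in the same cluster whose transcript ENST00000624358 ends 3938 bases before CYP26A1, was detected at a low level. Its reads fell mainly on that transcript, which is annotated for nonsense-mediated decay. Summed over its transcripts, CYP26C1 had 0, 0 and 2.77 normalized read counts in untreated libraries, 1.08, 2.92 and 8.96 with DAC, 2.11, 0.910 and 0 with ATRA, and 17.2, 23.2 and 24.7 with DAC + ATRA. The DAC + ATRA libraries were above all others, and DAC library 6 was the highest of the rest. The summed value reached the filter through the DAC + ATRA libraries alone. In the fit of values summed by gene symbol, DAC + ATRA exceeded untreated by 3.85 ± 0.57 (adjusted p = 5.22e-06), ATRA by 3.63 ± 0.57 (adjusted p = 1.59e-05) and DAC by 2.37 ± 0.57 (adjusted p = 0.0045). The shares of all 13528 symbols that passed were 48.5%, 37.1% and 12.3%. The interaction of 2.15 ± 0.81 did not pass (adjusted p = 0.149), nor did DAC alone (1.48 ± 0.57, adjusted p = 0.0352).

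CYP26B1, the third hydroxylase of the family, had 0 reads in the 9 libraries without the combination and 4, 2 and 5 reads in DAC + ATRA libraries 10 to 12. Set against 3 reads over a group of libraries, its summed level with DAC + ATRA was at least 4.18-fold higher than untreated, at least 4.16-fold higher than with ATRA and at least 3.78-fold higher than with DAC. The gene had too few reads to pass the filter in the main fit. Its canonical transcript (ENST00000001146) has 0 bases outside other GENCODE 44 transcripts although 9 reads were assigned to it, and the part of this sharing in its low level was not tested.

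**Figure D2:**
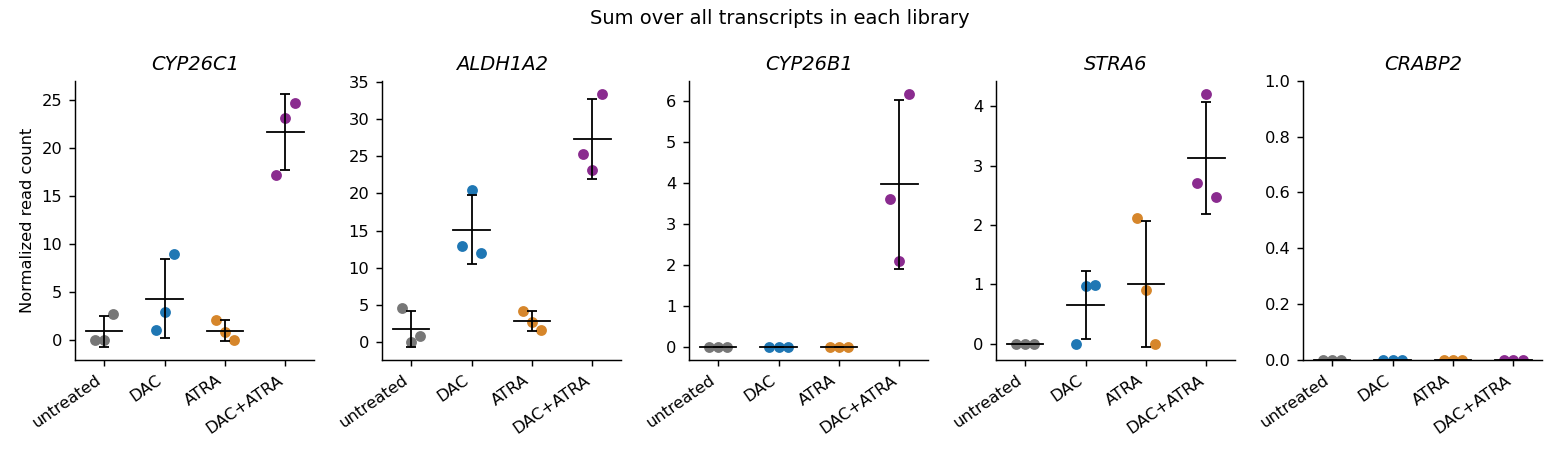
Normalized read counts (y axes, linear, each panel with its own range) summed over all transcripts of the 5 members that were not tested by their leading transcript, in each of the 12 libraries (points), with mean (bar) and SD (whisker) of 3 libraries. CYP26C1, CYP26B1 and STRA6 were highest in the DAC + ATRA libraries, ALDH1A2 was above the untreated and ATRA libraries in both groups with DAC, and CRABP2 had 0 reads.

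DHRS3, which reduces retinal to retinol, was the most abundant member per kilobase in every group and rose with ATRA in the absence and in the presence of DAC. The leading transcript (ENST00000616661, chr1:12567910-12618210, minus strand, 6 exons) had 392, 370 and 393 normalized read counts in untreated libraries and 517, 375 and 394 in DAC libraries. It had 4809, 5251 and 3931 in ATRA libraries and 4987, 5800 and 5465 in DAC + ATRA libraries. The 6 libraries with ATRA did not overlap with the 6 without, whereas the DAC libraries overlapped with the untreated libraries and the DAC + ATRA libraries with the ATRA libraries.

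DHRS3 increased by 3.58 ± 0.12 (SE, log2) with ATRA (adjusted p = 1.15e-14), by 3.81 ± 0.12 with DAC + ATRA (14.0-fold, adjusted p = 6.04e-16), and by 3.67 ± 0.12 with DAC + ATRA compared to DAC (12.7-fold, adjusted p = 2.08e-14). DAC alone gave 0.14 ± 0.12 (adjusted p = 0.357). The addition of DAC to ATRA gave 0.22 ± 0.12 (adjusted p = 0.151), with a 95% interval from -0.02 to 0.46. The interaction was 0.08 ± 0.17 (adjusted p = 0.866, interval -0.26 to 0.43). The excess over the sum of the single-agent rises was 710 ± 456 (SE) normalized read counts, or 343 to 1004 on leaving out each library in turn. For CYP26A1 the interval of the interaction was 5.34 to 8.12.

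A DHRS3 transcript with a retained intron (ENST00000482265) was the second in reads and rose with ATRA as well. It had 18.4 to 26.4 normalized read counts untreated, 27.0 to 33.1 with DAC, 458 to 558 with ATRA and 427 to 462 in DAC + ATRA libraries. In the fit of all biotypes, in which 6.97% of transcripts passed with ATRA, its rise with ATRA was 4.38 ± 0.16 (20.8-fold, adjusted p = 5.93e-17). Its share of the reads of the gene was 5.62% ± 1.08 (SD, n = 3) untreated, 6.70% ± 1.61 with DAC, 9.74% ± 2.32 with ATRA and 7.54% ± 0.64 in DAC + ATRA libraries. The libraries of both ATRA groups had higher shares than all untreated libraries (exact permutation test, two-sided p = 0.1 for each, the smallest that 3 against 3 libraries allow). The DAC libraries (4.95 to 8.11%) overlapped with the DAC + ATRA libraries (6.82 to 8.05%). The 2 minor protein-coding transcripts rose as well, ENST00000464917 by 2.95 ± 0.41 with ATRA (adjusted p = 1.97e-05) and 4.04 ± 0.41 with DAC + ATRA (adjusted p = 3.92e-08), and ENST00000430996 by 2.69 ± 0.43 (adjusted p = 0.000109) and 3.79 ± 0.43 (adjusted p = 2e-07). Both reached the filter only through the DAC + ATRA libraries, where they are highest. Neither differed between DAC + ATRA and ATRA past the threshold (1.09 ± 0.41, adjusted p = 0.036, and 1.10 ± 0.43, adjusted p = 0.0431).

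**Figure D3:**
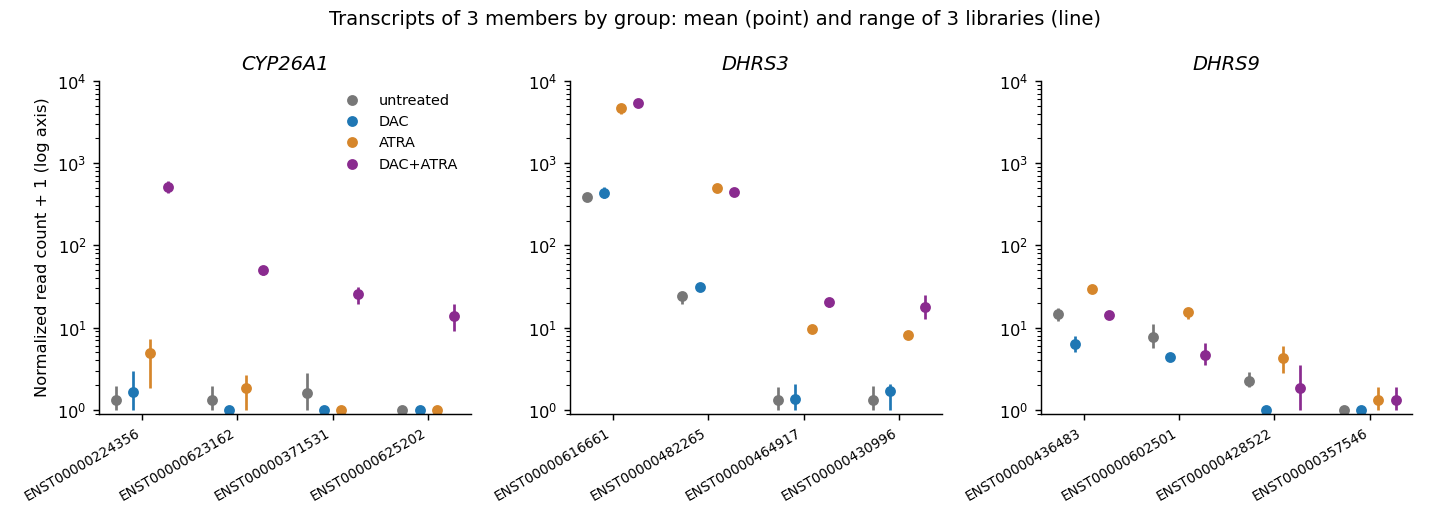
Normalized read count + 1 (y axis, log scale) of each transcript with reads of CYP26A1, DHRS3 and DHRS9 (x axis) in the 4 groups, as the mean (point) and the range of 3 libraries (line). The CYP26A1 transcripts were high in the DAC + ATRA group, the DHRS3 transcripts in both groups with ATRA, and the main DHRS9 transcripts were highest with ATRA alone.

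DHRS9, a retinol dehydrogenase of macrophages and epithelia, fell with DAC and had its highest values with ATRA alone. The leading transcript (ENST00000436483, chr2:169072500-169096167, plus strand, 6 exons) had 16.5, 10.9 and 13.9 normalized read counts untreated and 5.40, 6.82 and 3.98 with DAC. It had 26.4, 28.2 and 31.6 with ATRA and 11.8, 13.7 and 14.8 with DAC + ATRA. The ATRA libraries were above and the DAC libraries below all others, and the DAC + ATRA libraries overlapped with the untreated ones.

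With DAC, DHRS9 fell by 1.21 on the log2 scale (SE 0.29, adjusted p = 0.00165, range over the alternatives 0.000183 to 0.0111, the highest without untreated library 1). With ATRA it was 1.02 ± 0.29 higher, which missed the threshold (adjusted p = 0.0206) but passed by edgeR (adjusted p = 0.00911) and in the values summed by gene symbol (1.06 ± 0.24, adjusted p = 0.00321). DAC + ATRA was lower than ATRA, with a difference of -1.05 ± 0.29 (adjusted p = 0.00594), and higher than DAC by 1.19 ± 0.29 (adjusted p = 0.00601). Compared to untreated cells the combination gave -0.02 ± 0.29 (adjusted p = 0.952, interval -0.60 to 0.55). The whole gene had 302 reads in 12 libraries. The call against ATRA was lost on leaving out any one library of the ATRA or DAC + ATRA groups (adjusted p from 0.0117 to 0.0256). The call against DAC was lost in 10 of 23 alternatives, among them the omission of DAC library 4 or 6 or of any DAC + ATRA library, with adjusted p up to 0.0698.

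A longer protein-coding DHRS9 transcript (ENST00000602501, chr2:169064789-169096167) had 4.60 to 10.01 normalized read counts untreated, 2.99 to 3.90 with DAC, 11.6 to 16.4 with ATRA and 2.47 to 5.42 with DAC + ATRA. It reached the filter through the 3 ATRA libraries and 1 untreated library, and was lower with DAC + ATRA than with ATRA by a log2 difference of -1.75 ± 0.37 (adjusted p = 0.000645). Between DAC + ATRA and DAC its difference did not pass (0.05 ± 0.37, adjusted p = 0.948). The difference between the transcripts was not tested.

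RDH10, the main retinol dehydrogenase of embryonic retinoic acid synthesis, differed little between the groups. Its leading transcript (ENST00000240285, chromosome 8, plus strand, 6 exons) had 223, 235 and 213 normalized read counts untreated, 283, 335 and 329 with DAC, 203, 210 and 142 with ATRA, and 239, 263 and 204 with DAC + ATRA. The DAC libraries were above all others, the ATRA libraries were below the untreated ones, and the DAC + ATRA libraries overlapped with both of these groups. With DAC the difference was 0.49 ± 0.15 (1.41-fold, adjusted p = 0.00898). This call depended on the scaling and on single libraries. With TMM the difference was 0.29 (adjusted p = 0.0622), and the call missed the threshold in 14 of 23 alternatives, 7 of which left out 1 library, and adjusted p over all alternatives ranged from 0.00148 to 0.125. No other comparison passed for RDH10, the closest being DAC + ATRA against DAC (-0.43 ± 0.15, adjusted p = 0.0514).

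ALDH1A1, a retinal dehydrogenase that also marks stem cells in several tissues, rose with DAC with or without ATRA. The leading transcript (ENST00000297785, chr9:72900671-72953053, minus strand, 13 exons) had 36.8, 52.8 and 36.0 normalized read counts untreated and 174, 168 and 149 with DAC. It had 24.3, 31.9 and 18.3 with ATRA and 103, 116 and 109 with DAC + ATRA. The 4 groups did not overlap at all, in the order ATRA, untreated, DAC + ATRA and DAC.

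The rise of ALDH1A1 with DAC was 1.96 ± 0.20 (3.89-fold, adjusted p = 6.52e-08), and it was 1.38 ± 0.20 with DAC + ATRA (2.61-fold, adjusted p = 6.31e-06). DAC + ATRA exceeded ATRA by 2.13 ± 0.20 (4.36-fold, adjusted p = 2.28e-08). ATRA alone gave -0.74 ± 0.20 and missed the threshold (adjusted p = 0.0151), and it passed with library size scaling (-0.81, adjusted p = 0.00493), with TMM (-0.78, adjusted p = 0.00655), in the values summed by gene symbol (-0.75, adjusted p = 0.00886) and without ATRA library 8 (-0.93, adjusted p = 0.0037). The step from DAC to DAC + ATRA was -0.58 ± 0.20 (adjusted p = 0.0537, and 0.00705 with only these 2 groups in the fit). On the log2 scale the interaction was 0.16 ± 0.29 (adjusted p = 0.831). On the scale of normalized read counts DAC + ATRA lay below the sum of the single-agent changes, with an excess of -37.4 ± 10.6 (SE).

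ALDH1A2, which makes most of the retinoic acid of the early embryo, had 137 reads, 6 of them on protein-coding transcripts. The majority fell on ENST00000558504 (60 reads) and ENST00000559579 (47 reads), which start upstream of the canonical transcript and have no defined coding sequence. Summed over its transcripts, ALDH1A2 had 4.60, 0 and 0.924 normalized read counts untreated, 13.0, 20.46 and 11.95 with DAC, 4.22, 2.73 and 1.66 with ATRA, and 25.3, 23.2 and 33.4 with DAC + ATRA. The DAC libraries were above the untreated and ATRA libraries and below the DAC + ATRA libraries. The summed value reached the filter only in the 6 libraries with DAC, with or without ATRA. In the fit of summed values it rose by 2.83 ± 0.47 with DAC (adjusted p = 3.01e-05; 40.6% of all symbols passed) and by 3.66 ± 0.47 with DAC + ATRA (adjusted p = 7.18e-07). DAC + ATRA exceeded ATRA by 2.91 ± 0.47 (adjusted p = 2.35e-05), whereas the difference to DAC did not pass (0.83 ± 0.47, adjusted p = 0.258). The canonical transcript had 0 reads and has 0 bases outside other transcripts on its strand, and the part of this sharing in its value was not tested.

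CRABP2 and STRA6, the binding protein and the retinol receptor of the set, were near the limit of detection. CRABP2, a classical retinoic acid target in other cells, had 0 reads in all 12 libraries. Only 49 bases of its 4 transcripts lie outside one another, and whether sharing between transcripts or a low level left it without reads was not tested. STRA6 had 14 reads in all, with 0 untreated, 2 with DAC, 3 with ATRA and 9 in the DAC + ATRA group. Compared to 3 reads over the untreated group it was at least 3.42-fold higher with DAC + ATRA, and the ratio of DAC + ATRA to ATRA was 3.40 with a 95% counting interval from 0.848 to 19.5.

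**Figure D4:**
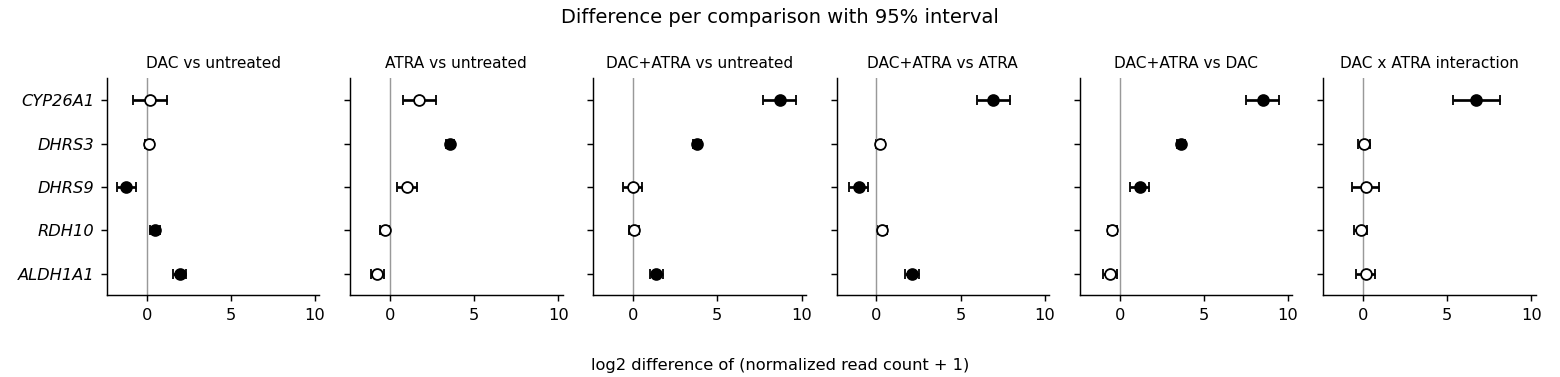
Log2 difference of (normalized read count + 1) (x axis) for the leading transcript of the 5 tested members in the 6 comparisons (panels), as the estimate (point) with its approximate 95% interval from the standard error (whisker). Filled points passed an adjusted p below 0.01. CYP26A1 was the only one of the 5 whose interaction passed, at 6.73, a call lost in 3 of 22 alternatives and made on a transcript that entered the test only through the DAC + ATRA libraries.

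Between genes, levels were compared per kilobase of transcript length, and the orders below hold only among the leading transcripts of the 5 tested members. In untreated cells the order was DHRS3 (175 ± 5.78, SD, n = 3), RDH10 (56.5 ± 2.72), ALDH1A1 (20.0 ± 4.52), DHRS9 (7.58 ± 1.55) and CYP26A1 (0.145 ± 0.252) normalized read counts per kilobase, with no overlap between neighbours. With DAC, ALDH1A1 (78.1 ± 6.09) reached RDH10 (79.7 ± 7.15), and their libraries overlapped. With ATRA, DHRS3 stood at 2119 ± 305, and DHRS9 (15.8 ± 1.46) and ALDH1A1 (11.8 ± 3.24) overlapped. With DAC + ATRA, CYP26A1 (245 ± 39.4) moved to the second place behind DHRS3 (2461 ± 186), followed by RDH10 (59.4 ± 7.52) and ALDH1A1 (52.1 ± 3.04), which overlapped, and DHRS9 (7.39 ± 0.86). This order depends on which bases could be counted. Per kilobase of bases outside other transcripts the means with DAC + ATRA were 3520 for DHRS3, 2792 for CYP26A1, 90.5 for ALDH1A1, 81.5 for RDH10 and 46.8 for DHRS9, with ALDH1A1 now above RDH10. By that measure DHRS9 (48.0) lay above ALDH1A1 (34.7) in untreated cells, ALDH1A1 (136) above RDH10 (109) with DAC, and DHRS9 (100.2) above RDH10 (64.1) with ATRA, where CYP26A1 (21.0) and ALDH1A1 (20.6) came last.

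Other genes of retinoid handling were counted from a list of 50, of which 13 had a tested leading transcript. With DAC, 6 rose and 1 fell (7 of 13, beside 39.3% of all tested), with ATRA 1 rose and 1 fell, beside 9.14%, and with DAC + ATRA 7 rose and 1 fell, beside 46.8% of all. The largest rises with DAC were those of LIPE, a hormone-sensitive lipase that can hydrolyse retinyl esters (3.64, with 0 reads untreated and a mean of 11.5 with DAC), LRP1, a lipoprotein receptor (3.33), LPL, lipoprotein lipase (3.28), and RBP5, a cellular retinol-binding protein (2.62, with 0 reads untreated and a mean of 5.37). LIPE and RBP5 were at 0 without DAC and so entered the test only through the groups with DAC, and their fitted values depend on the added 1. CYP2S1 rose with DAC (0.98), ATRA (0.71) and both (1.25). ALDH1B1, a mitochondrial aldehyde dehydrogenase, was the one gene that fell, with log2 differences of -0.98, -0.76 and -1.64. Between DAC + ATRA and DAC, 1 of the 13 passed (ALDH1B1, -0.67, beside 11.3% of all), and for the interaction 0 of the 13 passed by limma (2.46% of all) and 0 by edgeR or DESeq2. At an unadjusted p under 0.05 there were 3, beside 17.1% of all.

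Of 10 genes of retinoid and related receptors, 4 were tested. With DAC 3 rose (30.6% of all rose), with ATRA 1 fell (2.67% of all fell), and with DAC + ATRA 2 rose and 1 fell (32.6% and 14.2%). DAC + ATRA was higher than ATRA for 2 and lower for 1 (25.9% and 8.88% of all), and higher than DAC for 1 and lower for 1 (6.08% and 5.26%). By edgeR and by DESeq2, 2 of the 4 passed with DAC and 2 with ATRA, and the shares of all transcripts by these tools are not given here. RARA, the retinoic acid receptor alpha, rose with DAC (1.27) and with DAC + ATRA (2.07, from a mean of 128 to 542 normalized read counts), and DAC + ATRA exceeded ATRA by 1.52 and DAC by 0.81. RORB, an orphan nuclear receptor, was higher with DAC (0.41, a call that edgeR and DESeq2 did not make) and lower with ATRA (-0.42) and with both (-0.86), and its interaction of -0.84 passed. PPARD passed in no comparison.

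In a list of 26 further retinoic acid target genes, 17 were tested. ATRA raised 9 and lowered 1 of them (9.14% of all tested transcripts passed), DAC raised 10 and lowered 2 (39.3% of all), and DAC + ATRA raised 14 and lowered 1 (46.8% of all). Their median log2 difference was 0.93 with ATRA, beside 0.00 for all tested, 1.08 with DAC, beside 0.22, and 2.72 with DAC + ATRA, beside 0.20. The largest rises with ATRA were those of HIC1, a transcriptional repressor (5.91), THBD, thrombomodulin (5.80), CD38, an ectoenzyme (4.25), and ITGAX, an integrin (3.26). CD38 had means of 9402 normalized read counts with ATRA and 7617 with DAC + ATRA (difference -0.30, adjusted p = 0.0387). The interaction passed upward for 1 of the 17, BHLHE40 (1.65), beside 0.787% of all tested, and downward for 3, CEBPE (-2.03), ITGAX (-1.67) and THBD (-1.49), beside 1.67% of all. TGM2, with means of 0 untreated and 21.6 with DAC + ATRA, had an interaction of 3.08 that did not pass (adjusted p = 0.0108). It was at 0 in untreated cells, so it entered the test only through treated libraries, and its fitted value depends on the added 1.

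The protein-coding genes whose log2 values followed those of CYP26A1 most closely over the 12 libraries were LYPD2 (Pearson r = 0.984), SPANXB1 (r = 0.977) and HIC1 by its transcript ENST00000576444 (r = 0.975). Like CYP26A1 they were at means of 5 or less in 3 groups and at 41.1, 112 and 24.3 normalized read counts with DAC + ATRA. This HIC1 transcript had a mean of 0.303 with ATRA alone, and the HIC1 rise with ATRA given above is that of a different, leading transcript. For DHRS3 they were SPECC1 (r = 0.991), ARL14EPL (r = 0.989) and PRKCB (r = 0.986), and for DHRS9 PDP2 (r = 0.954), C9orf72 (r = 0.940) and ABCD2 (r = 0.918). These correlations describe 12 libraries in 4 groups and carry no test.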

How the data were processed

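Stranded, rRNA-depleted RNA-seq libraries of U937 cells were analysed from 1 table of 197782 transcripts. Per the submitters' processing notes, FastQC, STAR, HTSeq, DESeq2 and hg38 were used, and versions and the counting mode and strand setting are not given in the sources used here. The deposited values are a signal made by the authors: read counts per transcript divided by a DESeq2 size factor. Whole reads were recovered from the step of each library (tolerance 0.01), and because the step of DAC library 6 lies close to 1, count tests were run with and without it. Columns name a group and a running number, which is used here as the library number.

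Protein-coding transcripts (GENCODE 44, 174768 matched, or a protein-coding symbol where unmatched) that reached 10 in 3 or more libraries entered the test on log2(value + 1) with limma 3.58.1 (trend and robust) over all 12 libraries, with Benjamini-Hochberg adjustment over 9016 transcripts and a threshold of 0.01. A fold on this scale understates changes of low transcripts. Adjusted p values in the text are from this fit unless another is named. Approximate 95% intervals come from the standard error, and counting intervals are exact. Alternatives were edgeR 4.0.16, DESeq2 1.42.0, library size and TMM scaling, no filter, all biotypes, sums by symbol, a pseudocount of 0.1, only the groups compared, a threshold of 0.05 and leaving out each library. The TMM rescaling and the edgeR run without DAC library 6 were added after seeing the data. On simulated data for ATRA against untreated (8575 transcripts tested), limma found 62 of 94 transcripts changed 2-fold and 91 of 98 changed 4-fold, with 3 false calls. The simulated data held no DAC effect, so these figures do not cover the comparisons with DAC.

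All 10 members are named, from further lists at most the 4 largest and 4 smallest called differences, and for CYP26A1, DHRS3 and DHRS9 the 3 most alike genes. CRABP2 and the other untested members have values only. Members and lists were chosen with earlier results of these data known. Some genes of the further lists are not reported here.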

Additional observations from a re-analysis of the deposited data

Results flagged for a closer look

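The effect of ATRA on CYP26A1 differed between cells with and without DAC by the interaction term. It was 6.73 ± 0.71 (SE, log2, limma adjusted p = 5.87e-06) for the leading transcript ENST00000224356 and 5.14 ± 0.63 (limma adjusted p = 2.36e-05) for ENST00000371531. For ENST00000623162, a transcript with a retained intron, it was 5.17 ± 0.62 in the limma fit of all biotypes (adjusted p = 5.35e-06), and for the sum over the gene 7.26 ± 0.65 in the limma fit of summed values (adjusted p = 3.38e-07). These 4 values share the same 12 libraries and are not independent. All 3 DAC + ATRA libraries were above the other 9 for each of them. Each reached the filter on low values only through these 3 libraries, so the test of each comes from the values that admitted it. For the leading transcript the call was lost by edgeR (6.23, adjusted p = 0.229), by edgeR without DAC library 6 (5.69, adjusted p = 0.337) and with a pseudocount of 0.1 (7.07, adjusted p = 0.0209 by limma).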

How the results depend on the processing

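No paired analysis was possible because the columns carry a group and a running number but no replicate number of the labels, so no replicate block could be fitted. Leaving out 1 library in turn, the number of members past the threshold ranged from 1 to 3 with DAC, 1 to 2 with ATRA, 3 to 3 with DAC + ATRA, 2 to 3 for DAC + ATRA against ATRA, 2 to 3 against DAC and 1 to 1 for the interaction. The number of transcripts ranged from 3001 to 3876, 622 to 1024, 3631 to 4488, 2628 to 3153, 751 to 1255 and 148 to 483 in the same order, the last being 483 without ATRA library 9. The excess over the sum of single-agent rises ranged from 473 to 556 for CYP26A1, 343 to 1004 for DHRS3 and -44.6 to -32.2 for ALDH1A1, and with TMM that of ALDH1A1 was -27.1.

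Transcripts of all biotypes gave 6485 calls with DAC, 1351 with ATRA, 8065 with DAC + ATRA, 5688 against ATRA and 1699 against DAC, and sums by symbol gave 5493, 1300, 6559, 5015 and 1659, with other features in each fit. At an adjusted p under 0.05 the counts were 1317 with ATRA, 1618 for DAC + ATRA against DAC and 456 for the interaction, and DESeq2 called 341 for the interaction. Of the members, 1 was called with DAC by edgeR without DAC library 6. With ATRA 4 of 5 were called at 0.05, beside 1317 of 9016 transcripts, and 3 of 7 in sums, beside 1300 of 13528 symbols. With library size scaling 2 of 5 were called, beside 1015 of 9016 transcripts, and with TMM 2 of 5, beside 1018. Without the filter 2 of 9 were called, beside 3.09% of 25317 transcripts. By edgeR, with or without DAC library 6, 2 of 5 were called. The shares of all transcripts called by edgeR are not given here. With DAC + ATRA 6 of 9 were called without the filter (18.9% of all 25317 transcripts) and 5 of 7 in sums (48.5% of symbols), and against ATRA 5 of 7 in sums (37.1%). The interaction was called for 0 members by edgeR, with or without DAC library 6, and for 0 by limma with a pseudocount of 0.1. The main limma fit called 1. The cause was not tested.

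Differences that reversed were small and not called. DHRS3 with DAC was -0.0527 by edgeR, -0.0220 by DESeq2, -0.0641 with TMM and -0.0014 without DAC library 4. CYP26A1 with DAC was -0.48 in sums and -0.31 without DAC library 5. RDH10 with DAC + ATRA was -0.0673 by edgeR, -0.0662 by DESeq2, -0.0832 by edgeR without DAC library 6, -0.0828 with library size scaling, -0.0781 with TMM and -0.0198 without DAC + ATRA library 11. DHRS9 with DAC + ATRA was 0.11 without untreated library 1 and 0.0633 without DAC + ATRA library 10. The interaction of DHRS9 was -0.0740 in sums and -0.0025 without DAC library 6, that of ALDH1A1 -0.0101 without untreated library 2 and -0.0278 without ATRA library 9, and that of DHRS3 -0.0055 without DAC library 5 and -0.0347 without ATRA library 9. CYP26B1, CYP26C1, STRA6 and ALDH1A2 had few reads, so differences in them were measured with little precision at this depth.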
